A study of Mus musculus with 6 samples.

Results

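The 9 genes described here mark the oligodendrocyte precursor cell and the premyelinating oligodendrocyte that follows it, and they were chosen by symbol: Pdgfra, Cspg4, Gpr17, Neu4, Bcas1, Lhfpl3, C1ql1, Matn4 and Pcdh15. A probe set is a group of short oligonucleotides on the array that bind the same transcript. The platform annotation assigned 16 probe sets of the 45101 on the array to 8 of the 9 genes, and it listed none for Neu4, a sialidase of precursors. The groups were 3 Nogo-A KO mice and 3 wild type mice, all C57Bl/6 males aged 4 months, naive and untreated, with the whole spinal cord of each mouse on 1 Affymetrix Mouse 430 2.0 array. Nogo-A, the longest product of the gene Rtn4, sits in the membranes of myelinating oligodendrocytes and limits how far axons grow. The labels do not say how the knockout allele was made, and they give no litter or date.

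Oligodendrocyte precursors persist in the adult spinal cord, where they divide slowly and can turn into myelinating cells. They depend on platelet-derived growth factor, which binds the receptor encoded by Pdgfra, and they carry the proteoglycan NG2, the product of Cspg4, on their surface. As they commit to differentiate they lose both and pass through a stage marked by Gpr17 and Bcas1, after which the myelin genes are switched on.

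The values are signals from the authors' scanner software on a linear scale, already brought to a common mean per array. Tests used the log2 of each signal over the median of its array. On this scale the log2 change of the 23525 tested probe sets, KO minus wild type, had a median of 0.23, against 0.0079 with the deposited scaling and 0.019 after quantile normalization. Log2 changes below are therefore given relative to 0.23, unless the scaling is named, while the p-values were taken before this subtraction. The array medians were 144.4, 149.3 and 144.1 in KO and 148.2, 169.5 and 195.6 in wild type, so the medians of wild type replicates 2 and 3 were above those of all KO arrays and that of replicate 1 was not. The genotype was checked at Rtn4, where 1 of its probe sets read 30.8 ± 41.1 in KO and 3051 ± 441 in wild type (SD, n = 3 each, limma adjusted p = 0.000109). The other Rtn4 probe sets were not lost and had higher means in KO. These were 24626, 13157, 2572 and 1390 in KO and 18854, 8971, 1899 and 858 in wild type (limma adjusted p = 0.382 for each). Skeletal muscle markers stood out on KO replicate 2 and wild type replicate 3, where 8 of them summed to 22263 and 12411, against 6446 to 7355 on the other 4 arrays. Wild type replicate 3 was also the array with the brightest dim signals. Members whose change moved much without these arrays are given with and without them.

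No precursor gene passed the test in KO spinal cord. Of the 16 probe sets, 9 from 7 genes passed a filter on dim signals, which asked for a value at or above the median of the array on at least 2 of 3 arrays of a genotype, and none of the 9 passed it in 1 genotype alone. In limma 0 of the 9 had an adjusted p under 0.05, with adjusted p-values of 0.382 to 0.880, where 0.00% of all tested probe sets were called higher and 0.00425%, 1 probe set of Rtn4, lower. At an unadjusted p under 0.05, 3 of the 9 were higher and 0 lower, against 11.9% and 1.13% of all tested probe sets, and with the deposited scaling 1 was higher and 1 lower, against 4.31% and 3.98%. The methods' t-test, the 1-factor test of the series design, gave 0 after Benjamini-Hochberg adjustment. At the thresholds of the series design, an unadjusted p under 0.05 and a fold of at least 1.2, it called 2 of the 9 higher, Bcas1 and Matn4, and 0 lower under both scalings. The background for these counts was 8.35% higher and 0.922% lower of all tested probe sets with the array median, and 2.24% and 2.59% with the deposited scaling. In whole tissue, fewer cells of a type and less RNA per cell cannot be told apart.

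The regulatory sequence is shown for context for Matn4, the tested member with the highest relative log2 change, and for Pdgfra, the receptor gene that defines the cell. Each is the 250 bases before the annotated start in RefSeq on GRCm38.p6. Capitals mark the E-box, CANNTG on either strand, the motif that basic helix-loop-helix factors such as Olig2 bind.
Matn4, chr2:164405161-164405410, minus strand: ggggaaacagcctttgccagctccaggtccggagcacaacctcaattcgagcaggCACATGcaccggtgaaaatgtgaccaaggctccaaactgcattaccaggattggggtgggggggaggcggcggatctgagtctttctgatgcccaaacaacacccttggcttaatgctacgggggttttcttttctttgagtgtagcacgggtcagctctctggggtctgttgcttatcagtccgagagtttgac
Pdgfra, chr5:75152001-75152250, plus strand: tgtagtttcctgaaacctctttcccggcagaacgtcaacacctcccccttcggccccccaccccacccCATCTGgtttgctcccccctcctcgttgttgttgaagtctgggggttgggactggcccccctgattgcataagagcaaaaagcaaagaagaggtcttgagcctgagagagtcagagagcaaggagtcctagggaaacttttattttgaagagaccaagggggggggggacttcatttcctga
Of the members, 6 genes with 7 starts were in the promoter table, and 5 of the 7 windows held an E-box, against 66.2% of 32841 windows of the same length. The SOX motif, searched as ACAAAG and ACAATG on both strands, was in 0 of the 7 windows and in 25.2% of all. Matn4 has a second annotated start whose window held neither motif. These matches describe letters in a window and say nothing about whether a factor is bound there.

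**Figure D1:**
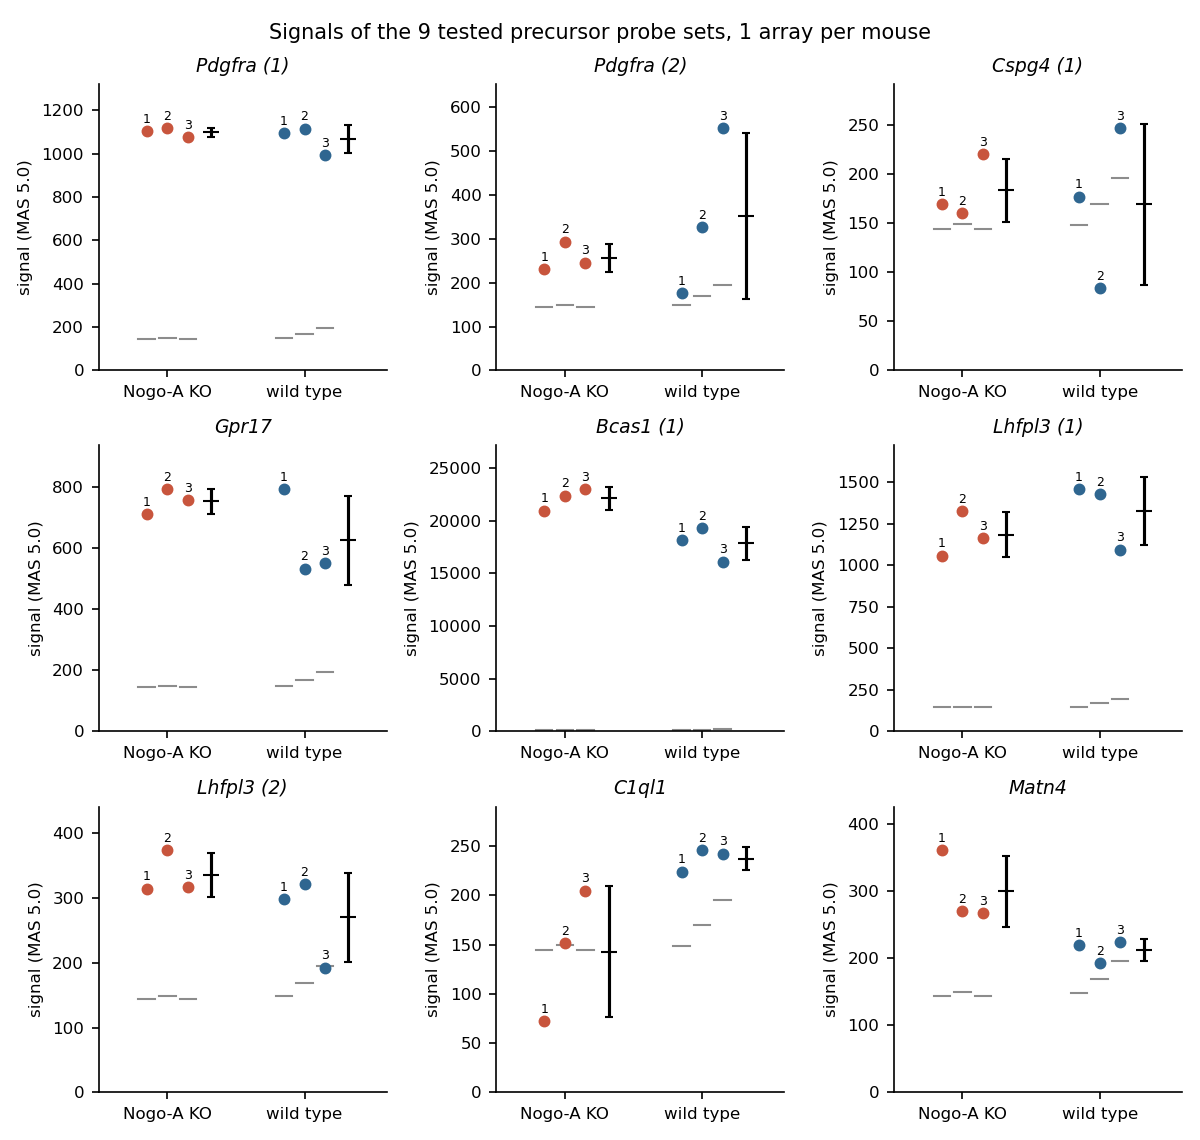
Signal of each of the 9 tested probe sets on every array (points, numbered by replicate, KO left of wild type), with the mean and SD beside them and the median of each array as a grey tick. The number in brackets ranks the probe sets of a gene by mean signal. The genotypes are apart in Bcas1 and Matn4, where KO is higher, and in C1ql1, where KO is lower. Of all tested probe sets, 7.85% are apart with KO higher and 6.62% with KO lower in these deposited signals.

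The receptor gene Pdgfra had close signals on all arrays at its brightest probe set. Its signals were 1104, 1118 and 1075 in KO and 1095, 1115 and 992 in wild type. All 6 arrays lay within 1.13-fold of each other, against a median spread of 1.51-fold over all tested probe sets. The relative log2 change was 0.036, with a 95% interval of -0.36 to 0.43 (limma adjusted p = 0.458). After division by the array median every KO value lay above every wild type value, as in 19.9% of all tested probe sets, but the deposited signals overlapped. The direction of so small a change turned under some settings, and without wild type replicate 3 the relative change was -0.0093. The second probe set of Pdgfra varied most within wild type. It read 231, 293 and 245 in KO and 176, 327 and 552 in wild type, so the KO range lay inside the wild type range. Its relative log2 change of -0.32 (limma adjusted p = 0.859) rested on wild type replicate 3, the highest array, without which it was 0.085, and it was -0.76 without wild type replicate 1, the lowest. The log2 ratio of the brighter over this dimmer probe set was 2.26, 1.93 and 2.13 in KO and 2.63, 1.77 and 0.84 in wild type. These ratios overlapped (exact permutation test of the group means, two-sided p = 0.7). Their SD was 0.17 in KO and 0.89 in wild type (n = 3 each), and this difference in spread was not tested. The third probe set read 61.6 to 67.2 in KO and 32.5 to 87.6 in wild type, below the median of all 6 arrays, and was not tested.

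Cspg4, the gene of the proteoglycan NG2, was near the limit of what the arrays could tell. Its brighter probe set read 169, 161 and 221 in KO and 177, 83.9 and 247 in wild type, so the wild type values spanned those of KO. The relative log2 change was 0.23 with a 95% interval of -0.60 to 1.06 (limma adjusted p = 0.523). It was -0.22 without wild type replicate 2, the array with the lowest signal, 0.083 without KO replicate 3, 0.57 without wild type replicate 3 and 0.66 without both arrays with muscle signal. The dimmer probe set, which was not tested, read 125, 124 and 186 in KO and 131, 219 and 46.6 in wild type. On wild type replicate 2 the first probe set was lowest and the other highest, and on replicate 3 this was the other way round.

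Pdgfra is also made by fibroblasts and Cspg4 by pericytes, so markers of those cells were measured on the same arrays. The 10 fibroblast and meningeal markers summed to 11516 to 12702 in KO and 8093 to 9992 in wild type, and their median relative log2 change was 0.39, with 7 of 10 above the shift. The 7 tested of 9 pericyte and smooth muscle markers summed to 11897 to 12879 in KO and 11596 to 13536 in wild type, with a median of 0.094. The fibroblast sum was higher on every KO array than on any wild type array, but this was not particular to fibroblasts. The precursor markers, with Bcas1 by far the brightest, summed to 24428 to 26701 in KO and 19471 to 22894 in wild type. Sums of the other precursor, premyelinating, mature oligodendrocyte, PDGF pathway and neuron genes described below were also apart in this direction. Those of the remaining lists overlapped. Gene by gene, all KO arrays lay above all wild type arrays in 6 of the 10 after division by the array median. With the deposited scaling 5 lay above and 1 below, Lum, with 400.1 ± 52.8 in KO and 550 ± 12.3 in wild type (SD, n = 3 each). Over all tested probe sets 19.9% lay above with the array median, and 7.85% above and 6.62% below with the deposited scaling. The part of these cells in the signals of Pdgfra and Cspg4 was not tested.

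Gpr17, a G protein-coupled receptor that marks committed precursors and holds back their maturation, was read by 1 probe set. It had 712, 794 and 757 in KO and 793, 533 and 552 in wild type. Wild type replicate 1 reached the level of the KO arrays, while the other 2 wild type arrays lay below all of them. The mean was 754 ± 40.8 in KO and 626 ± 145 in wild type (SD, n = 3 each). The relative log2 change was 0.28, with a 95% interval of -0.19 to 0.76 (limma adjusted p = 0.382). Gpr17 was the member whose call depended on an array. Without wild type replicate 1 its relative log2 change was 0.45 and its adjusted p 0.0481 in limma. That fit called 626 probe sets higher and 40 lower of 23069 tested. It kept wild type replicates 2 and 3, whose array medians of 169.5 and 195.6 were above those of all KO arrays. Its p-values were taken before the shift was subtracted. The relative change of Gpr17 was smaller, at 0.17, both without wild type replicate 2 and without the pair of arrays with muscle signal. Over all alternatives its adjusted p ranged from 0.0481 to 0.757.

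Bcas1, which marks premyelinating and early myelinating oligodendrocytes and whose protein stays in myelin, was higher in KO at its brightest probe set without passing the test. The signals were 20951, 22402 and 23014 in KO and 18149, 19293 and 16121 in wild type. Every KO array lay above every wild type array with both scalings, as in 19.9% of all tested probe sets after division by the array median and 7.85% with the deposited scaling. Means were 22122 ± 1059 in KO and 17854 ± 1607 in wild type (SD, n = 3 each). The relative log2 change was 0.30, a fold of 1.24, with a 95% interval of -0.12 to 0.73 (limma adjusted p = 0.382). With the deposited scaling it was 0.31, with an interval of 0.11 to 0.51 and an adjusted p of 0.591 in limma, and after quantile normalization it was 0.17. The other 2 Bcas1 probe sets were dim. They read 78.7 to 178 and 97.6 to 140.2 in KO, and 92.3 to 167 and 36.1 to 151 in wild type, in that order, and neither was tested. The first of them carries the suffix by which the maker marks probes that may also bind other transcripts.

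The secreted and matrix members had differences of opposite sign, neither past the test. Matn4, which encodes matrilin 4 of the extracellular matrix, had signals of 362, 271 and 267 in KO and 219, 193 and 224 in wild type. All 3 KO arrays were above all 3 wild type arrays with both scalings. This held in 19.9% of all tested probe sets after division by the array median and in 7.85% with the deposited scaling. KO replicate 1 stood above the other 2. These signals were dim. On wild type replicates 2 and 3 they were little above the array medians of 169.5 and 195.6, and the filter at the 75th percentile left the probe set out. The means were 300.1 ± 53.4 in KO and 212 ± 16.8 in wild type (SD, n = 3 each). Its relative log2 change of 0.48, a fold of 1.40, had a 95% interval of -0.049 to 1.01 (limma adjusted p = 0.382). It kept its sign under the 17 alternatives in which it was tested, with values of 0.34 to 0.61 and adjusted p-values of 0.0612 to 0.749. Some of these, such as the deposited scaling and the replicate block, cannot alter the relative change. C1ql1 encodes a secreted protein with a C1q domain that binds the adhesion receptor Adgrb3. Its change was the largest among the tested members, and KO was lower. The signals were 72.1, 151 and 205 in KO and 224, 246 and 242 in wild type. The wild type arrays were close together, at 237 ± 11.8, while the KO arrays were spread, at 143 ± 66.7 (SD, n = 3 each). In deposited signals every KO array lay below every wild type array, as in 6.62% of all tested probe sets, but after division by the array median, where 2.07% lay below, the groups overlapped. The relative log2 change was -0.87, a fold of 0.548, with a 95% interval of -1.67 to -0.068. Before the shift was subtracted the change was -0.64, and the limma adjusted p of 0.410 belongs to that change. KO replicate 1 lay under the median of its array, and without it the relative change was -0.44. Leaving out each array in turn gave values of -1.20 to -0.44.

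Lhfpl3, which encodes a membrane protein with 4 passes through the membrane, gave opposite directions at its probe sets. The brighter read 1058, 1326 and 1162 in KO and 1458, 1429 and 1093 in wild type, with a relative log2 change of -0.17. Before the shift was subtracted this change was 0.060, to which the limma adjusted p of 0.880 belongs. The dimmer read 315, 374 and 317 in KO and 299, 321 and 193 in wild type, with a relative log2 change of 0.33 (limma adjusted p = 0.383). Without wild type replicate 3 the changes were -0.30 at the brighter and 0.11 at the dimmer probe set, and without both arrays with muscle signal they were -0.38 and 0.025. Within each array a single scaling factor does not change the log2 ratio of the brighter over the dimmer probe set. Differences between arrays that vary with brightness, as in the dim signals of wild type replicate 3, can still enter the ratio. The ratio was 1.75, 1.83 and 1.88 in KO and 2.29, 2.15 and 2.50 in wild type. The genotypes did not overlap in this ratio, with a difference of -0.50 and an exact permutation p of 0.1 (two-sided), the smallest that 3 arrays against 3 can give. How often the genotypes are apart in such a ratio over other genes was not computed, so whether this is unusual is not known. In Pdgfra, the other member with 2 tested probe sets, the ratios overlapped. The Lhfpl3 ratio was computed after the signals had been seen, and the exons that each probe set reads were not known here. Pcdh15 encodes a protocadherin, known best from the tip links of inner ear hair cells, and none of its 3 probe sets passed the filter. They read 103.8 to 133, 77.5 to 120.2 and 5.08 to 77.7 in KO, and 128 to 179, 77.4 to 107.8 and 35.1 to 140.2 in wild type, in that order. Signals overlapped in each, and whether the gene differs was not detectable at this brightness.

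**Figure D2:**
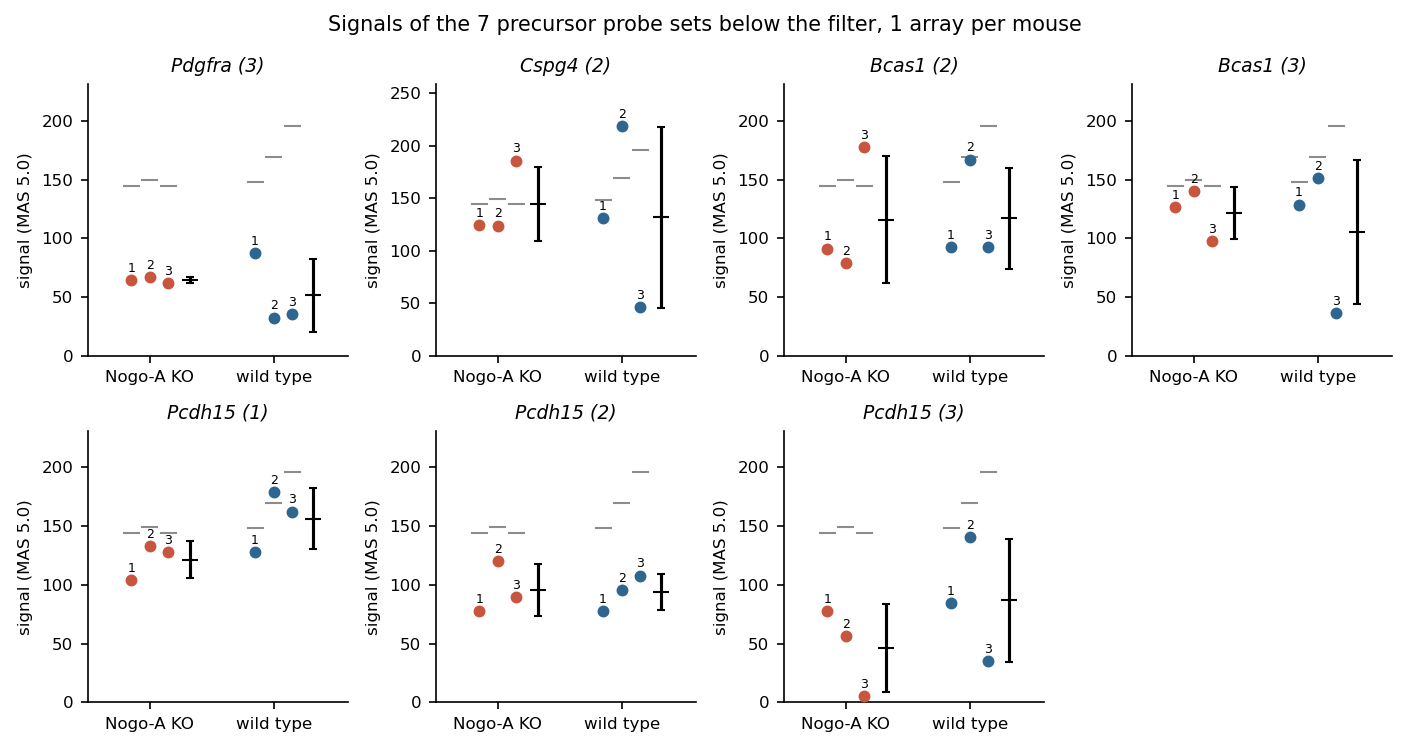
Signals of the 7 probe sets that did not pass the filter, drawn as the tested ones, with array medians as grey ticks. Most points lie under the median of their array, and the genotypes overlap in every panel.

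Set side by side, the members did not share a direction. Of the 9 tested probe sets 6 lay above the shift and 3 below it, with a median relative log2 change of 0.23, where the median over all tested probe sets is 0 by construction. Without the filter 11 of 16 lay above and 5 below, with a median of 0.23, and 0 of 16 passed (limma, smallest adjusted p = 0.470). The 95% interval of the change ran to 0.43 above and 0.36 below on the log2 scale for the brightest Pdgfra probe set and to 1.06 above and 0.60 below for Cspg4. The median depended on single arrays. Taken as medians of the deviations from each gene's mean, the 9 probe sets stood at 0.033, 0.11 and 0.11 on KO arrays and at 0.047, 0.037 and -0.22 on wild type replicates 1 to 3. Wild type replicates 1 and 2 thus lay inside the KO range, and replicate 3 lay below it. The median relative change was 0.057 without wild type replicate 2, 0.083 without KO replicate 3 and 0.11 without wild type replicate 3. Without both arrays with muscle signal it was 0.025. In deposited signals wild type replicate 3 was the lowest array in 3 of the 9 member probe sets and the highest in 2, where over all tested probe sets it was lowest in 28.5% and highest in 26.6%. With each array centred on its tested probe sets it was lowest in 5 of the 9 and highest in 2, against 35.3% and 21.2% of all. The part of muscle signal and of the dim signals of that array in these values was not tested.

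**Figure D3:**
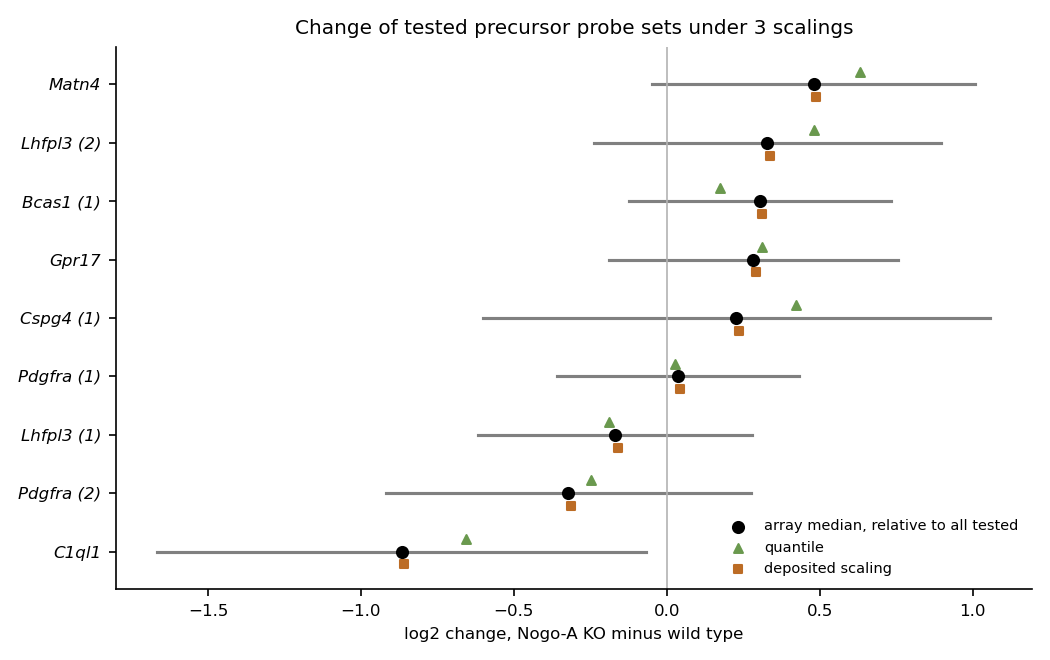
Log2 change, KO minus wild type, of the 9 tested probe sets. Black points with 95% intervals are array median values relative to all tested probe sets, triangles are quantile normalized values and squares are deposited values. Matn4 at 0.48 is at the top and C1ql1 at -0.87 at the bottom, and each probe set has the same sign under the 3 scalings. Squares differ from the black points by the same 0.0079 for every probe set, so they are no separate check of the sign.

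Other genes of the lineage were measured on the same arrays from lists that hold no member. Of 13 tested genes enriched in precursors, 9 lay above the shift and 4 below, with a median of 0.18, and 0 passed. The lineage factor Olig1 read 12105 ± 284 in KO and 9759 ± 750 in wild type, and its relative Olig2 read 1360 ± 70.9 in KO and 1172 ± 123 in wild type (SD, n = 3 each). The matrix protein gene Tnr read 684 ± 42.6 in KO and 590.1 ± 80.3 in wild type (SD, n = 3 each). Of 10 premyelinating genes, 6 were above and 4 below, with a median of 0.062. The deacetylase gene Sirt2 had a relative log2 change of 0.39, Tns3 0.19 and the factor Nkx2-2 0.16, each with an adjusted p of at least 0.382 in limma. Named by their p, taken before the shift was subtracted, such genes tend to lie above it. Itpr2, a calcium channel gene singled out after its values were seen, had the largest change of that list, -0.61. It read 276 ± 27.1 in KO and 425 ± 105 in wild type (SD, n = 3 each). Every KO array lay below every wild type array, as in 2.07% of all tested probe sets with the array median and 6.62% with the deposited scaling. Of 19 mature oligodendrocyte genes, 16 were above and 3 below, with a median of 0.16, and Myrf, the factor that switches on myelin genes, had 0.63, the myelin membrane protein gene Opalin 0.48 and the lineage factor Sox10 0.43. All KO arrays lay above all wild type arrays in 14 of these 19 after division by the array median and in 6 with the deposited scaling, against 19.9% and 7.85% of all tested probe sets. In the precursor markers, taken 1 probe set per gene, this held in 3 and 2 of 7.

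By array the lists differed in their layout. The median deviations of the mature genes were 0.071, 0.083 and 0.18 in KO and -0.11, -0.13 and -0.12 in wild type, with no overlap. This was not particular to them. Medians of the fibroblast, neuron, Schwann cell and paralog lists were also higher on every KO array than on any wild type array. Those of the premyelinating genes overlapped, at -0.0080, 0.040 and 0.064 in KO and -0.047, 0.062 and -0.071 in wild type. Those of the other precursor genes were 0.092, 0.18 and 0.023 in KO and 0.086, -0.021 and -0.29 in wild type, so wild type replicate 1 lay among the KO arrays. Those of the marker genes at 1 probe set per gene were 0.033, 0.11 and 0.17 in KO and 0.11, -0.047 and -0.22 in wild type, with the same overlap. Olig1 and Olig2, counted with the precursor genes, and Sox10, counted with the mature genes, are factors of the lineage rather than of a single stage. Whether the precursor lists differ from the mature list was not tested.

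**Figure D4:**
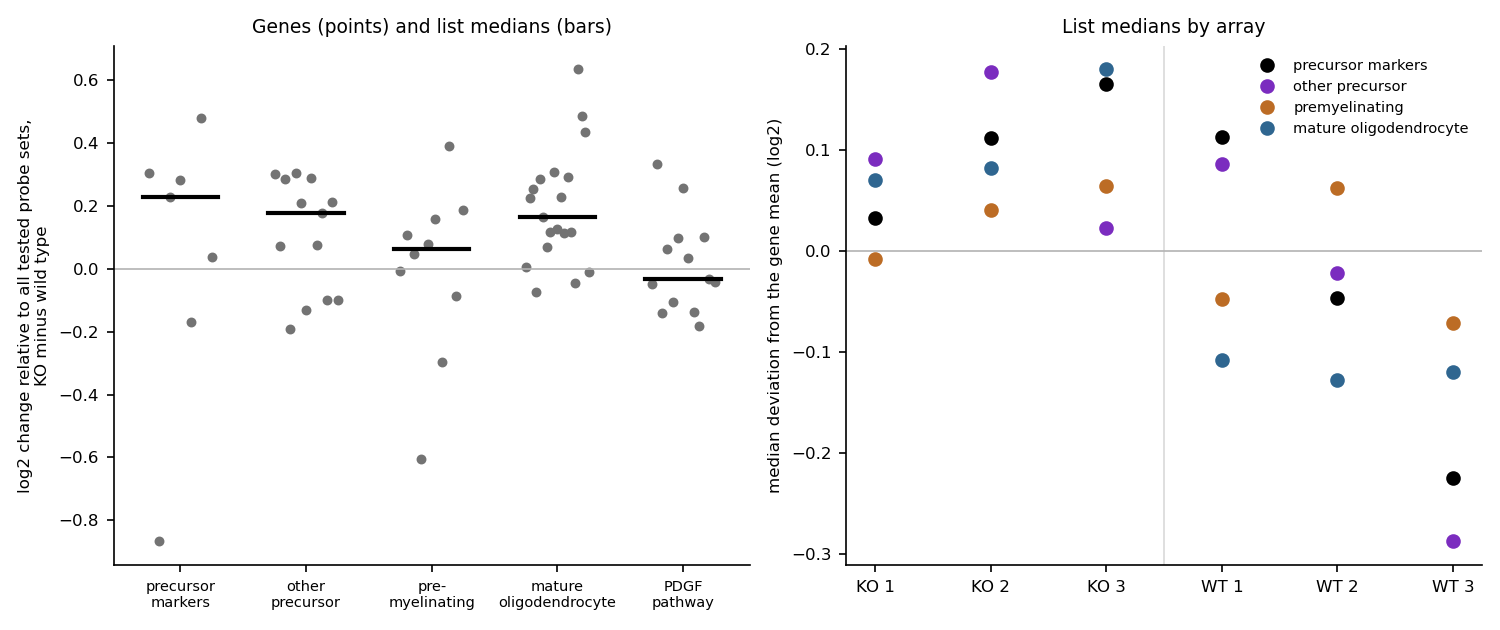
Left, relative log2 change of each gene (points) and list median (bars) for precursor markers, other precursor genes, premyelinating genes, mature oligodendrocyte genes and the PDGF pathway. Right, list medians of the log2 deviation from each gene's mean on each array, where mature genes are above 0 on all KO arrays and below 0 on all wild type arrays, while precursor markers on wild type replicate 1 lie among the KO arrays.

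Ligands and partners of the Pdgfra receptor gave no call. Of 13 tested genes of that pathway, 6 lay above the shift and 7 below, with a median relative log2 change of -0.031. The adaptor gene Grb2 had 0.33, the sister receptor Pdgfrb, also in the pericyte list, 0.26 and the phosphatase gene Ptpn11 0.099. The 3 lowest, named after their values were seen, were the phospholipase gene Plcg1 at -0.18, the ligand gene Pdgfa at -0.14 and the kinase subunit gene Pik3r1 at -0.14. Among paralogs and partners of the other members, 21 of 24 listed symbols had a probe set and 12 were tested, with 8 above and 4 below and a median of 0.084. The paralogs of Lhfpl3 led that list, with Lhfpl2 at 0.31, Lhfpl4 at 0.17 and Lhfpl5 at 0.19, and 0 of the 12 passed in limma. Of the 11 cell cycle genes, which would mark dividing precursors among other cells, 10 had a probe set and 4 were bright enough to be tested. Of these, 1 lay above the shift and 3 below. Relative log2 changes were 0.18 in Pcna, -0.10 in Mcm2, -0.45 in Ccna2 and -0.27 in Mcm6. In deposited signals the genotypes did not overlap in Mcm6 alone, with 260.2 ± 16.4 in KO and 312 ± 23.5 in wild type (SD, n = 3 each). On that scale KO lay below in 6.62% of all tested probe sets.

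Markers of further cell types were read on the same arrays. Median relative log2 changes were 0.15 over 10 neuron genes, 0.098 over 8 astrocyte genes, 0.22 over 6 Schwann cell genes, -0.22 over 9 microglia genes and -0.056 over 7 endothelial genes, with 0 calls in each in limma. Microglia markers summed to 11161 to 12474 in KO and 11052 to 15951 in wild type. On wild type replicate 3, where the precursor markers were lowest, neuron and astrocyte medians were also lowest, at -0.21 and -0.25, and microglia and endothelial medians were highest, at 0.34 and 0.23. The part of these differences in the values of precursor genes was not tested.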

How the data were processed

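Whole spinal cord RNA of 3 Nogo-A KO and 3 wild type mice was measured on 1 array per mouse, grouped by the titles in the labels. The deposited intensities were made by the authors with MAS 5.0 in GCOS 1.4 (per the labels and the submitters' processing notes) and scaled to a common trimmed mean. Later steps of the design text were not in these values, and background correction could not be redone from them. Here each value was divided by its array median and logged, the 64 control probe sets were left out, and probe sets were kept at or above the 50th percentile on 2 of 3 arrays of a genotype, in place of present calls. limma 3.58.1 in R 4.3.3 (lmFit, eBayes with trend) compared KO with wild type, with Benjamini-Hochberg adjustment over 23525 probe sets at 0.05, two-sided. The fit was tested on simulated data.

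Symbols came from the platform annotation, updated by gene identifier to a RefSeq table; 34958 probe sets had 1 symbol, 932 several and 9160 none. A gene in a list is represented by the brightest of its tested probe sets. All 16 member probe sets are named, and in the lineage, PDGF and paralog lists the 3 genes with the smallest p. Members and lists were chosen with earlier results of these data known. The labels do not say that replicates came from separate litters, so p-values measure the spread between these 6 mice. The number of arrays limits the precision. The replicate numbers are not known to pair the mice. Alternatives were other scalings, filters, an offset, no trend, a replicate block, arrays left out, gene means and the methods' t-test.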

Additional observations from a re-analysis of the deposited data

How the results depend on the processing

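Of the 9 tested member probe sets, none passed the adjusted threshold of 0.05 in limma under any alternative except Gpr17 without wild type replicate 1 (adjusted p = 0.0481). Leaving out each array in turn gave 0 to 1 member probe sets past the threshold, 0 to 626 higher and 1 to 40 lower calls over the whole array, and a median relative log2 change of the members of 0.057 to 0.31. Higher and lower calls were 158 and 36 without wild type replicate 3 and KO replicate 2, 14 and 3 under the filter at the 75th percentile, and 2 and 0 without the trend. They were 1 and 2 with the deposited scaling without wild type replicate 3, a setting chosen after seeing the data. The offset gave 1 higher call, and gene means and the methods' t-test gave 0 lower. The members' median was 0.025 without the pair of arrays with muscle signal and 0.11 with the deposited scaling without wild type replicate 3. The brightest Pdgfra probe set turned to -0.0051 under the filter at the 75th percentile, -0.022 without that pair and -0.0093 without wild type replicate 3. Leaving out 1 array, the second Pdgfra probe set ranged from -0.76 to 0.085, the highest being without wild type replicate 3. Cspg4 ranged from -0.22 without wild type replicate 2 to 0.57. The cause was not tested. Bcas1, Matn4, Gpr17, C1ql1 and both Lhfpl3 probe sets kept their direction under every alternative in which they were tested. Part of this was fixed in advance, because some alternatives cannot alter the relative change. These are the deposited scaling, centring on the tested probe sets, no trend, the replicate block and the methods' t-test. The deposited scaling without wild type replicate 3 likewise repeats the value without that array. With the replicate number as a block, 182 probe sets were higher and 33 lower, with 0 members among them; same-numbered arrays deviated together with correlations of -0.035, 0.074 and 0.11, so the numbers are not known to pair the mice. Dim signals limit Cspg4, C1ql1, Matn4 and Pcdh15.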
